A study of Mus musculus with 15 samples.

Results

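The comparison of DM with APP-TKI mice asked how the hippocampal transcriptome differs when *APOE4* is added to mutant *App*. APP-TKI mice carry knocked-in *App* mutations on both alleles (AppNL-G-F/NL-G-F). DM mice, made by crossing APP-TKI with ApoE4 mice, carry the same homozygous *App* mutations and 1 *APOE4* allele, a genotype written Apoe4+/wt. All were females of 3 months, and polyA RNA of the whole hippocampus was sequenced from 3 mice of each genotype. These 6 libraries are part of 15, and 3 WT libraries were in the same batch (batch 1). A separate batch 2 held 3 WT and 3 ApoE4 libraries. ApoE4 mice carry 1 human *APOE4* allele without the *App* mutations. The WT and ApoE4 mice were also females of 3 months. The deposited values are read counts per gene. Of the 55471 genes in the table, 16171 had more than 1 CPM, the count scaled to library size, in at least 3 libraries and were tested, among them 13911 protein-coding genes. Total counts were 34345854 to 36317506 in APP-TKI and 35398148 to 38427086 in DM libraries. Markers of hippocampal neurons were present in all 6 libraries, with summed levels of 962.9 to 1194 CPM for 13 CA1 pyramidal and 892.1 to 1109 CPM for 17 dentate granule markers.

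APOE is the main apolipoprotein of the brain, released mostly by astrocytes, and *APOE4* is the allele that raises the risk of Alzheimer's disease. APP is the precursor of amyloid β, and the NL-G-F mutations lie in the mouse gene itself, so that amyloid is produced under the normal *App* promoter. Small vessels of the brain consist of endothelial cells, which form the blood-brain barrier, with pericytes on capillaries, smooth muscle cells on arterioles and fibroblasts around larger vessels and in the meninges.

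*App* (chr16:84949685-85173766 of GRCm38) measured 1302, 1188 and 1303 CPM in APP-TKI and 1268, 1394 and 1343 CPM in DM libraries, a log2 fold change of 0.08 ± 0.06 (SE). *Apoe* (chr7:19696109-19699188) measured 1583, 1500 and 1313 CPM in APP-TKI and 1596, 1468 and 1702 CPM in DM libraries, a log2 fold change of 0.12 ± 0.08. Libraries of both genotypes overlapped for both genes. Human and mouse *APOE* counts are combined in 1 row, so this row does not check the genotype labels.

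Across the transcriptome, no gene passed an adjusted p of 0.1 in the quasi-likelihood test of edgeR, and 0.0% of tested genes were called. The smallest adjusted p was 0.22, for *Gm10736*, a processed pseudogene on chr13 with 18.7, 19.4 and 18.2 CPM in APP-TKI and 29.8, 31.8 and 36.5 CPM in DM libraries. As a pseudogene it may take reads from its parent gene, so its identity is uncertain. The differences that were measured leaned upward in DM mice. At an unadjusted p under 0.05, 611 genes stood out, against 808.6 if p-values were uniform. Of these, 458 were higher (2.83% of tested genes) and 153 were lower (0.946%) in DM libraries. Every DM library lay above every APP-TKI library for 814 genes (5.03%) and below for 469 (2.9%). The sign itself was balanced, with a positive log2 fold change in 50.4% of genes and a median of 0.0012. Most differences were small, since 83.7% of genes had a log2 fold change under 0.2 in size. The number of genes at unadjusted p under 0.05 depended on single libraries. It fell to 344 without DM replicate 3 and to 350 without APP-TKI replicate 2, and was 1306 without DM replicate 1 and 1343 without APP-TKI replicate 3, while 0 protein-coding genes passed the adjusted threshold in each of these fits.

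The other tests called more genes. The robust likelihood ratio test of edgeR, the kind named in the methods of the study and run here in edgeR 4.0.16, called 46 protein-coding genes (0.331% of those tested), 36 of them higher in DM. Its variant with robust tagwise dispersions called 26 (0.187%) and the Wald test of DESeq2 called 16 (0.115%). All 3 called the same 14 genes, of which 13 were higher in DM mice. Among these were the vascular genes *Acta2*, *Ptprb*, *Cavin1*, *Pecam1* and *Anxa2*, the lipid carriers *Pltp* and *Ptgds*, the ribosomal genes *Rps29*, *Rpl38* and *Rps28*, and *Nnat* and *Atp5o*. The gene called lower by all 3 was *Btg3*. In the text that follows, no gene compared between DM and APP-TKI mice passed the adjusted threshold of the quasi-likelihood test, and fold changes are on the log2 scale of that fit ± SE.

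Vascular genes stood higher in DM mice. The study names 8 for this comparison, and in all 8 every DM library lay above every APP-TKI library. The study chose them on these samples, so their direction is not independent evidence. *Ptprb* (chr10:116275523-116389535), the endothelial receptor phosphatase that restrains angiopoietin signalling, measured 8.60, 11.2 and 9.67 CPM in APP-TKI and 17.4, 13.5 and 17.2 CPM in DM libraries (0.71 ± 0.13, adjusted p = 0.602, edgeR). WT libraries of the same batch, at 10.5, 11.9 and 12.8 CPM, were also below every DM library. *Pecam1*, the adhesion molecule CD31 at endothelial cell contacts, measured 4.78, 5.77 and 5.69 CPM in APP-TKI and 7.86, 8.32 and 9.88 CPM in DM libraries (0.68 ± 0.14). *Cdh5*, which encodes VE-cadherin of endothelial adherens junctions, measured 2.51, 2.36 and 2.29 CPM in APP-TKI and 4.46, 3.47 and 3.90 CPM in DM libraries (0.73 ± 0.16). Both genes were likewise higher in DM than in WT libraries without overlap. *Flt1*, the VEGF receptor VEGFR1, measured 9.18, 12.01 and 9.39 CPM in APP-TKI and 15.9, 12.5 and 18.7 CPM in DM libraries (0.62 ± 0.15), and its DM replicate 2 was close to the highest APP-TKI library. *Vwf*, the von Willebrand factor that endothelial cells release for platelet adhesion, measured 3.09, 3.38 and 3.87 CPM in APP-TKI and 11.8, 4.82 and 5.70 CPM in DM libraries (1.11 ± 0.28). DM replicate 1 stood far above the other two for *Vwf*.

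The other 3 are not restricted to endothelium. *Acta2* (chr19:34241090-34255590), the actin of smooth muscle, had the largest difference of the 8, with 2.48, 1.25 and 2.65 CPM in APP-TKI and 5.41, 4.11 and 5.90 CPM in DM libraries (1.27 ± 0.27, adjusted p = 0.602, edgeR). *Cavin1*, a coat protein of caveolae, measured 6.995, 7.46 and 7.82 CPM in APP-TKI and 12.8, 9.78 and 11.5 CPM in DM libraries (0.61 ± 0.12). *Anxa2*, an annexin that binds plasminogen and its activator at the cell surface, measured 3.76, 3.56 and 5.06 CPM in APP-TKI and 6.57, 7 and 7.26 CPM in DM libraries (0.75 ± 0.16). WT libraries lay below every DM library for these 3 genes as well. The median log2 fold change of the 8 genes was 0.72, against 0.0012 over all tested genes, and stayed between 0.64 and 0.79 when any of the 6 libraries was left out. Side by side, their median was 0.69 in DM minus WT and -0.10 in APP-TKI minus WT, comparisons that share libraries with this one.

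**Figure D1:**
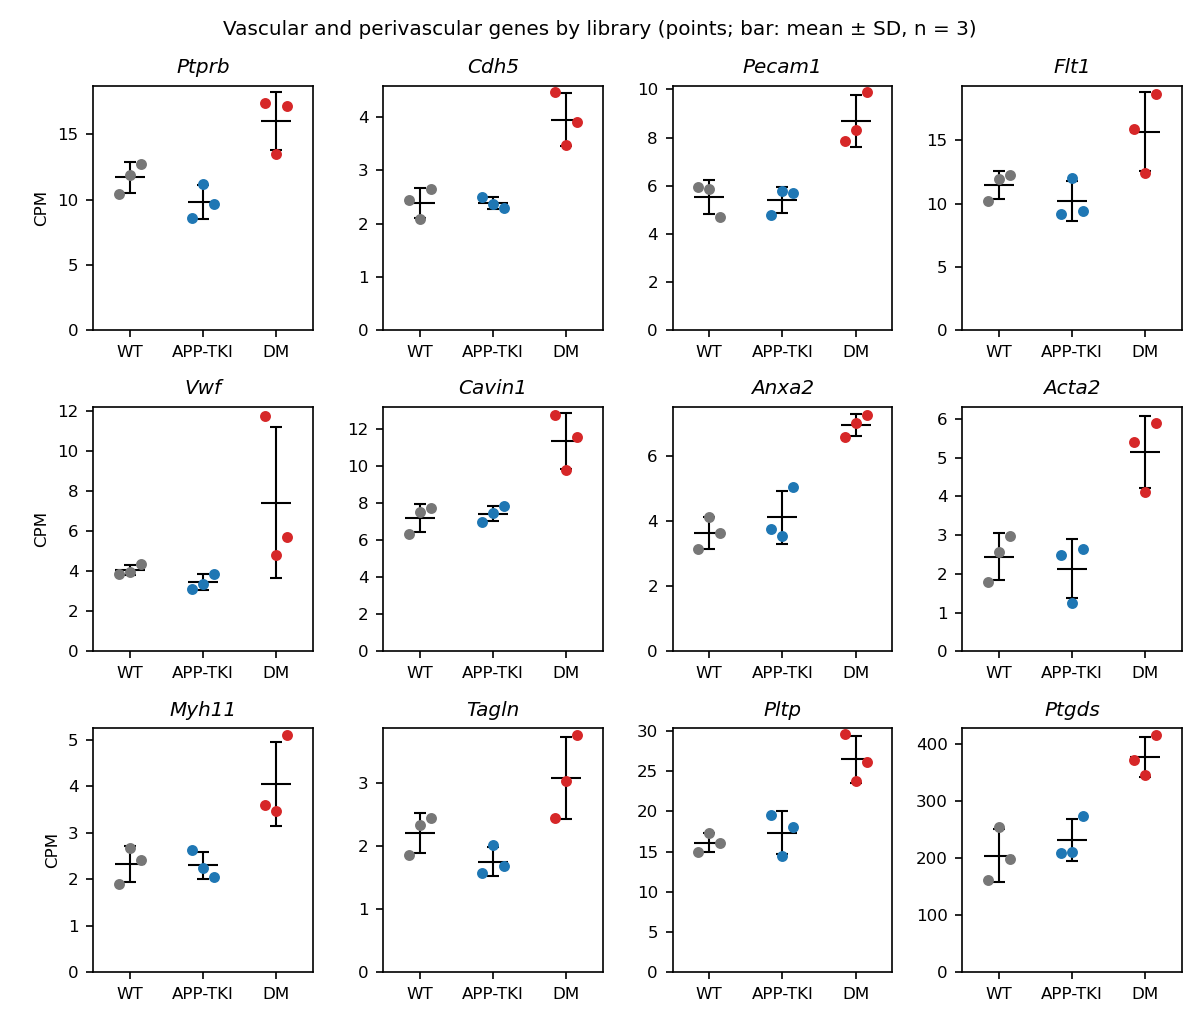
CPM of 12 vascular and perivascular genes in each WT, APP-TKI and DM library of batch 1 (points), with the mean and SD of the 3 libraries as black bars and each axis starting at 0. In every panel the 3 DM libraries lie above the 3 APP-TKI libraries, and *Vwf* has 1 DM library at 11.8 CPM beside 4.82 and 5.70 CPM.

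Wider marker lists include genes that the study chose on these samples, and some genes belong to more than 1 list. Counts of such lists are therefore not independent evidence. The endothelial list holds *Ptprb*, *Pecam1*, *Cdh5*, *Flt1* and *Vwf*, and each of them is in every count of the next sentence. Of 38 endothelial markers, 34 had a positive fold change, 15 were higher in DM without overlap, against 5.03% of all genes, and 16 had an unadjusted p under 0.05 in that direction, against 2.83%. Their median was 0.39 and ranged from 0.27 to 0.44 with a library left out. Beyond the genes above, *Pltp*, a phospholipid transfer protein of lipoproteins, measured 19.6, 14.4 and 18.1 CPM in APP-TKI and 29.6, 23.8 and 26.1 CPM in DM libraries (0.61 ± 0.12). *Podxl*, a sialomucin of the luminal surface, measured 11.98, 11.1 and 11.5 CPM in APP-TKI and 15.7, 14.1 and 15.5 CPM in DM libraries (0.39 ± 0.09). Neither gene overlapped between the genotypes. The summed level of the 38 markers was 280.4 to 298.8 CPM in APP-TKI, 330.7 to 393.0 CPM in DM and 280.7 to 296.5 CPM in WT libraries of the batch. In bulk tissue, more cells of a type and more RNA per cell cannot be told apart.

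The VEGF and angiopoietin list of 25 genes also holds genes of other vessel signalling, such as *Notch1*, *Dll4*, *Acvrl1* and *Tgfbr2*. Of the 25, 15 had a positive fold change and 7 were higher without overlap (5.03% over all genes). In that direction, 7 had an unadjusted p under 0.05 (2.83%). The median was 0.15, and 0.05 without APP-TKI replicate 2. *Ptprb*, *Flt1*, *Tek*, *Tie1* and *Kdr*, which are in these counts, are also endothelial markers. The 3 receptors described next were above the median of the list. *Acvrl1*, the endothelial BMP receptor ALK1, measured 2.04, 2.19 and 2.38 CPM in APP-TKI and 3.45, 2.92 and 4.27 CPM in DM libraries (0.69 ± 0.18). The angiopoietin receptor *Tek* (TIE2) measured 3.18, 4.05 and 3.65 CPM in APP-TKI and 4.38, 4.69 and 7.52 CPM in DM libraries (0.61 ± 0.20), with DM replicate 3 highest. Its partner receptor *Tie1* had a log2 fold change of 0.68 ± 0.21 without overlap.

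Barrier and transport genes gave smaller medians. Of 25 blood-brain barrier genes, 20 had a positive fold change and 5 were higher without overlap (5.03% over all genes), with a median of 0.11. The efflux transporter *Abcb1a* (P-glycoprotein) measured 7.67, 11.8 and 8.95 CPM in APP-TKI and 12.5, 12.5 and 17.4 CPM in DM libraries (0.57 ± 0.18). The organic anion transporters *Slc22a8* (0.49 ± 0.14) and *Slco1a4* (0.38 ± 0.12) did not overlap either. The tight junction gene *Cldn5* measured 6.97, 5.48 and 4.20 CPM in APP-TKI and 8.74, 6.37 and 10.03 CPM in DM libraries (0.60 ± 0.19), and here the genotypes overlapped. Of 8 caveolae genes, 7 had a positive fold change and *Cavin1* alone was higher without overlap (5.03% over all genes). *Cav1*, the caveolin of endothelial caveolae, measured 7.78, 7.90 and 10.1 CPM in APP-TKI and 9.02, 10.8 and 12.5 CPM in DM libraries (0.33 ± 0.14). Of 12 plasminogen and anticoagulant genes, 3 were higher without overlap (5.03% over all genes), among them *Anxa2* and thrombomodulin, *Thbd*. *Thbd* measured 5.07, 4.23 and 3.10 CPM in APP-TKI and 6.75, 5.59 and 6.87 CPM in DM libraries (0.63 ± 0.18). *S100a10*, the partner of *Anxa2* in plasminogen binding, had a log2 fold change of 0.27 ± 0.10 with overlap.

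Mural cells comprise smooth muscle cells and pericytes. Of 12 smooth muscle markers, 3 were higher in DM at an unadjusted p under 0.05 (2.83% over all genes), namely *Acta2*, *Myh11* and *Tagln*. *Acta2* is among the genes the study chose on these samples. *Myh11*, smooth muscle myosin, measured 2.62, 2.24 and 2.05 CPM in APP-TKI and 3.61, 3.47 and 5.10 CPM in DM libraries (0.82 ± 0.20). *Tagln*, transgelin, measured 1.57, 2.01 and 1.69 CPM in APP-TKI and 2.45, 3.03 and 3.76 CPM in DM libraries (0.81 ± 0.21). Over the 12, 9 had a positive fold change, 4 were higher without overlap (5.03% over all genes) and the median was 0.21, or 0.13 without APP-TKI replicate 2. The actin crosslinker *Flna* was at -0.16 ± 0.16 and the tropomyosin *Tpm1* at -0.02 ± 0.05, a pair chosen after their values were seen. Of 15 pericyte markers, 9 had a positive fold change, 1 was higher without overlap (5.03% over all genes) and the median was 0.02. Of these markers, 0 had an unadjusted p under 0.05, against 2.83% higher and 0.946% lower over all genes. Whether the lists differ from each other was not tested.

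Fibroblast markers had a higher median than endothelial markers, at 0.47 (0.36 to 0.56 with a library left out). Of 28, 24 had a positive fold change, 11 were higher without overlap, against 5.03% of all genes, and 14 had an unadjusted p under 0.05, against 2.83%. *Ptgds*, the prostaglandin D synthase made by meningeal fibroblasts and oligodendrocytes, measured 209.9, 211.7 and 274.4 CPM in APP-TKI and 372.5, 345.7 and 415.9 CPM in DM libraries (0.70 ± 0.15, adjusted p = 0.602, edgeR). *Aebp1*, an extracellular matrix protein, measured 8.07, 7.14 and 9.67 CPM in APP-TKI and 14.3, 11.1 and 12.3 CPM in DM libraries (0.60 ± 0.17). The GABA transporter *Slc6a13* (0.54 ± 0.16) and the connexin *Gjb2* (0.61 ± 0.20), both of the leptomeninges, did not overlap. The summed level of the list was 395.8, 397.6 and 499.9 CPM in APP-TKI and 625.8, 575.7 and 664.2 CPM in DM libraries. *Ptgds* makes up most of that sum. Of 21 oligodendrocyte and myelin markers, 15 had a positive fold change and 0 were without overlap, with a median of 0.05. With a library left out, 5 to 21 of them were positive and the median ran from -0.05 without APP-TKI replicate 2 to 0.21 without APP-TKI replicate 1.

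Collagen chains leaned the other way. Of 34, 13 had a positive fold change, the median was -0.15, and 7 had an unadjusted p under 0.05 in the lower direction, against 0.946% of all genes. Set beside WT of the same batch, the median was 0.12 in DM minus WT and 0.31 in APP-TKI minus WT, comparisons that share libraries with this one. By these medians the collagen list was not below WT in DM mice. *Col6a3*, a chain of the microfibrillar collagen VI, measured 10.9, 7.17 and 3.56 CPM in APP-TKI and 3.66, 3.11 and 2.82 CPM in DM libraries (-1.17 ± 0.32). APP-TKI replicate 3 lay within the DM range. *Col15a1*, a collagen of vascular basement membranes, measured 8.16, 9.71 and 5.19 CPM in APP-TKI and 5.08, 3.61 and 4.30 CPM in DM libraries (-0.82 ± 0.25) with no overlap, while WT libraries were at 5.30, 4.23 and 2.86 CPM, like DM. *Col11a2* had a log2 fold change of -0.43 ± 0.14 with overlap. *Col8a2*, a network-forming collagen, was opposite, with 1.603, 1.25 and 2.24 CPM in APP-TKI and 2.48, 2.92 and 2.93 CPM in DM libraries (0.70 ± 0.24). Laminins and other basement membrane genes had a median of -0.02, with *Lamb1* (-0.19 ± 0.07) and *Lama3* (-0.31 ± 0.14) lower and fibronectin, *Fn1*, at 0.29 ± 0.11. Leaving out DM replicate 1 moved the collagen median to -0.25 and leaving out APP-TKI replicate 1 to -0.08.

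Ependymal and choroid plexus markers, which report how much of the ventricle wall a dissection includes, varied within each genotype. The summed level of 24 ependymal markers was 126.8, 89.6 and 129.3 CPM in APP-TKI and 169.0, 129.8 and 123.7 CPM in DM libraries. APP-TKI replicate 2 was low and DM replicate 1 high. The median was 0.45 and dropped to 0.17 without APP-TKI replicate 2. The axonemal dynein *Dnah12* measured 1.78, 0.233 and 2.68 CPM in APP-TKI and 4.36, 3.22 and 2.91 CPM in DM libraries (1.15 ± 0.49). Choroid plexus markers summed to 85.2, 41.4 and 62.5 CPM in APP-TKI and 46.1, 68.3 and 39.3 CPM in DM libraries. Their median was -0.22, and 0.01 without APP-TKI replicate 1. The median of 6 hemoglobin genes was -0.01, and the genotypes overlapped. *Hbb-bs*, a β-globin, measured 12.6, 22.3 and 11.8 CPM in APP-TKI and 14.7, 10.8 and 13.1 CPM in DM libraries.

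**Figure D2:**
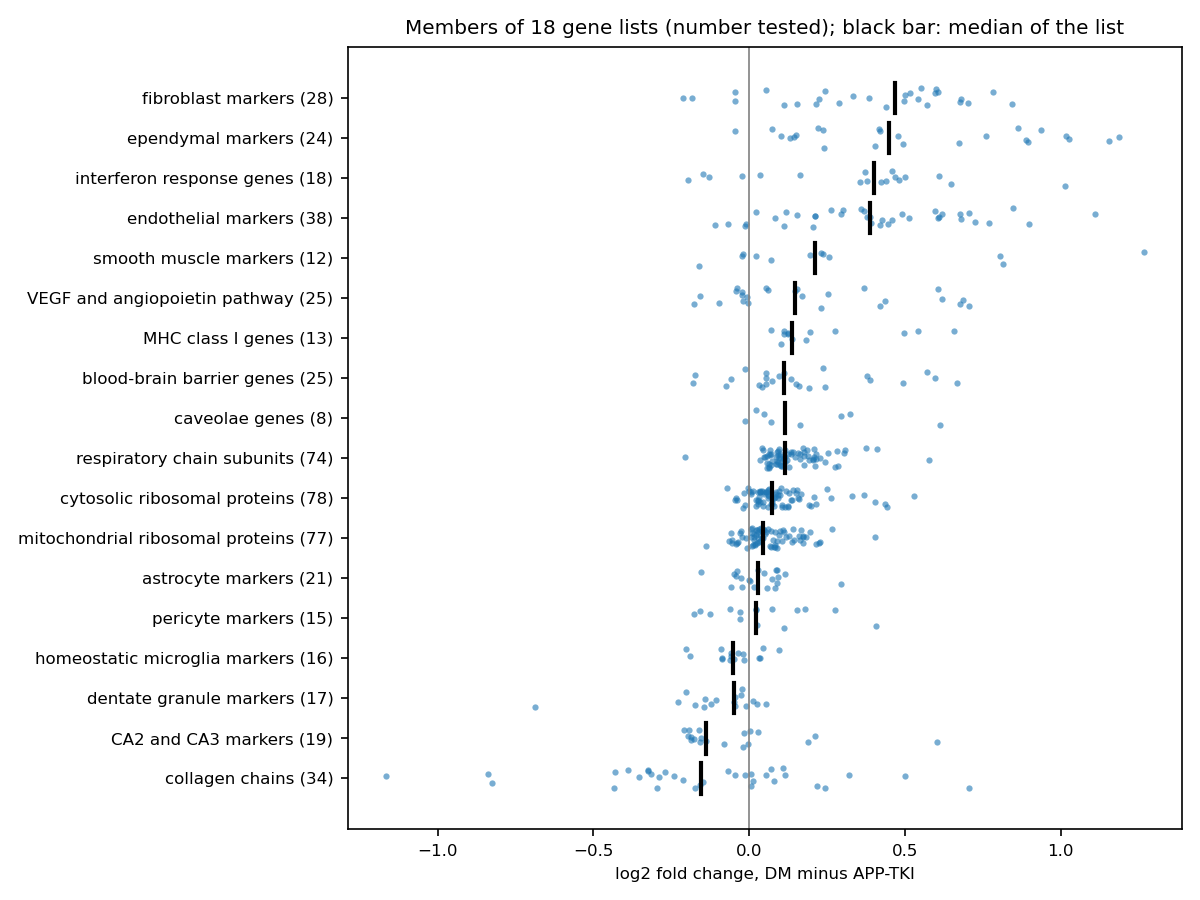
Log2 fold changes, DM minus APP-TKI, of the tested members (points) of 18 gene lists, with the median of each list as a black bar. Medians run from 0.47 for fibroblast markers through 0.39 for endothelial markers to -0.15 for collagen chains. CA2 and CA3 markers lie at -0.14, close to collagen chains, and the lists of dentate granule neurons, astrocytes and microglia lie near 0.

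Ribosomal protein genes and subunits of the respiratory chain had small fold changes, nearly all of them positive. The 4 ribosomal genes the study names, also chosen on these samples, did not overlap between the genotypes. *Rps29*, a protein of the small subunit, measured 132.0, 146.3 and 150.4 CPM in APP-TKI and 190.5, 196.8 and 232.2 CPM in DM libraries (0.53 ± 0.11, adjusted p = 0.602, edgeR). *Rpl38*, of the large subunit, measured 118.2, 121.1 and 130.8 CPM in APP-TKI and 152.4, 163.3 and 185.1 CPM in DM libraries (0.44 ± 0.09). *Rps28* (0.40 ± 0.09) and *Rpl19* (0.37 ± 0.08) did not overlap either. For all 4, WT libraries overlapped the DM libraries, as for *Rps29* with 168.1, 204.3 and 147.4 CPM. Their median was 0.21 in DM minus WT and -0.22 in APP-TKI minus WT.

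Over all 78 cytosolic ribosomal protein genes, 70 had a positive fold change, 15 were higher without overlap (5.03% over all genes) and 17 had an unadjusted p under 0.05 in that direction (2.83%), but the median was only 0.07 and fell to 0.03 without DM replicate 3. Most mRNAs of ribosomal proteins begin at a C followed by a run of pyrimidines, the 5′ terminal oligopyrimidine tract, through which their translation is controlled by mTOR. In the RefSeq promoters of GRCm38.p6, a run of at least 5 pyrimidines that begins with C within 3 bases of the start was found in 24 of 57 ribosomal protein genes with an entry (42.1%) and in 15.1% of 10877 tested protein-coding genes. The 30 bases around the annotated starts of the named genes are shown to compare their tracts, with the tract in capitals. *Rpl38* has a tract of 8 bases, and by this rule neither *Rpl19* start nor the *Rps28* start has one in this annotation. At the *Rpl19* start of chr11:98026909-98026938, a pyrimidine run ends just before the start and is not counted. *Rps29* has no entry and is not shown.
Rpl38, chr11:114668565-114668594, + strand: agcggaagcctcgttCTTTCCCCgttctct
Rpl19, chr11:98026695-98026724, + strand: tgaccaaacgccctcactgcgcatgtgcgc
Rpl19, chr11:98026909-98026938, + strand: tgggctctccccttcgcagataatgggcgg
Rps28, chr17:33824548-33824577, - strand: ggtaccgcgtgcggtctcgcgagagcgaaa
The named genes shown are too few to compare fold changes with and without a tract, and no such test was run.

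Of 74 nuclear-encoded subunits of the respiratory chain and ATP synthase, 73 had a positive fold change, 18 were higher without overlap (5.03% over all genes) and 24 had an unadjusted p under 0.05 in that direction (2.83%), with a median of 0.11 (0.08 to 0.16 with a library left out). *Atp5o*, of the ATP synthase stalk, measured 11.3, 12.6 and 12.9 CPM in APP-TKI and 16.5, 18.2 and 20.3 CPM in DM libraries (0.58 ± 0.12, adjusted p = 0.602, edgeR). *Ndufb9*, of complex I, measured 17.98, 19.97 and 19.5 CPM in APP-TKI and 24.03, 23.9 and 26.5 CPM in DM libraries (0.38 ± 0.09). *Atp5k* was at 0.41 ± 0.11, and *Tomm7*, a subunit of the mitochondrial import pore, at 0.31 ± 0.07, both without overlap. Mitochondrial ribosomal proteins followed weakly, with 64 of 77 positive and a median of 0.04. Of 31 proteasome subunits, 28 were positive with a median of 0.06, and 0 had an unadjusted p under 0.05.

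The fold change moved with gene length. The median of protein-coding genes was 0.12 for exon lengths of 0.5 to 1 kb (220 genes), 0.06 for 1 to 2 kb, 0.02 for 2 to 4 kb, -0.01 for 4 to 8 kb and -0.03 above 8 kb, and Spearman's rho with exon length over genes was -0.20, genes of 1 library not being independent. The median exon length was 1.78 kb for cytosolic ribosomal proteins and 1.74 kb for respiratory chain subunits, against 4.60 kb for all tested protein-coding genes. The list medians of 0.07 and 0.11 stand beside 0.06 for genes of 1 to 2 kb. Endothelial markers, with a median exon length of 4.39 kb and a median fold change of 0.39, stand beside -0.01 for 4 to 8 kb. With GC content, rho was -0.02. Nuclear noncoding RNAs took 1.488%, 1.497% and 1.17% of counts in APP-TKI and 1.62%, 1.18% and 1.05% in DM libraries, so that high and low libraries occur in both genotypes. With this share as a covariate, the median was 0.70 for the 8 vascular genes, 0.05 for ribosomal proteins and 0.10 for the respiratory chain. The part of length and nuclear RNA in these differences was not tested.

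**Figure D3:**
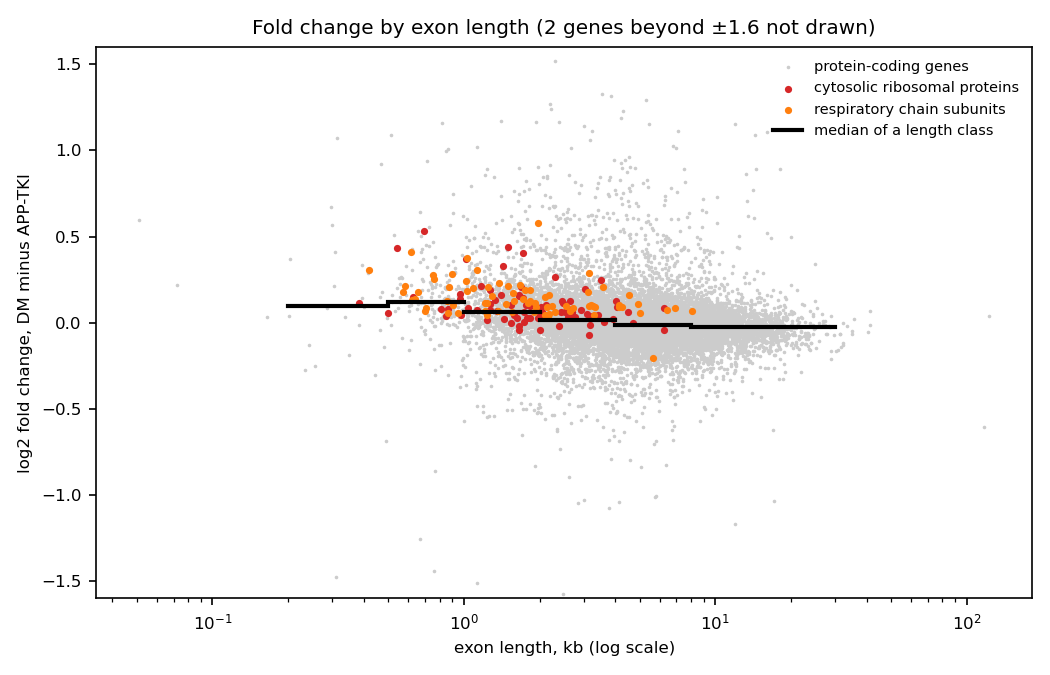
Log2 fold change, DM minus APP-TKI, against exon length in kb on a log axis for protein-coding genes (grey), with cytosolic ribosomal proteins in red, respiratory chain subunits in orange and the median of each length class as a black line. The class medians descend from 0.12 at 0.5 to 1 kb to -0.03 above 8 kb, and most red and orange points lie above 0 among short genes. 2 genes beyond ±1.6 are not drawn.

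Among immune genes, those of the interferon response stood higher in DM. Of 18 interferon response genes, 14 had a positive fold change, 9 were higher without overlap (5.03% over all genes) and 6 had an unadjusted p under 0.05 (2.83%), with a median of 0.40. *Ifit3*, an antiviral effector, measured 4.26, 3.96 and 5.001 CPM in APP-TKI and 8.02, 6.75 and 5.95 CPM in DM libraries (0.65 ± 0.20). *Ifit1*, of the same family, measured 0.787, 1.08 and 1.82 CPM in APP-TKI and 3.40, 2.12 and 1.94 CPM in DM libraries (1.01 ± 0.33). *Ifitm3*, which blocks viral entry and is also expressed by endothelial cells, was at 0.50 ± 0.15. The summed level of the list was 136.7 CPM in DM replicate 1 and 115.4 and 111.7 CPM in the other two, against 109.0 to 111.8 CPM in APP-TKI libraries, so that DM replicate 3 fell in the APP-TKI range. The MHC class I list of 13 genes also holds antigen-processing genes such as *Tapbp*, *Tap1* and *Psmb8*. All 13 had a positive fold change, 3 without overlap (5.03% over all genes), *Tapbp* among them. The median was 0.14, or 0.09 without DM replicate 1 and 0.23 without DM replicate 2. *H2-Q4*, one of the nonclassical class I genes, measured 1.63, 1.603 and 1.80 CPM in APP-TKI and 3.45, 2.26 and 2.22 CPM in DM libraries (0.66 ± 0.22), and reads of its near-identical neighbours make that value uncertain.

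Of 16 homeostatic microglia markers, 4 had a positive fold change and the median was -0.05, and of 19 activated microglia genes 12 were positive with a median of 0.09. The lysosomal protease *Ctsd* measured 115.6, 114.3 and 121.3 CPM in APP-TKI and 125.0, 129.8 and 130.9 CPM in DM libraries (0.14 ± 0.06). *Cd68*, a lysosomal protein of phagocytes, was at 0.23 ± 0.11 without overlap. Of 15 complement genes, *Serping1*, the C1 inhibitor that fibroblasts also make, had an unadjusted p under 0.05, at 0.38 ± 0.13. Astrocyte markers had a median of 0.03, and *Vim*, an intermediate filament also found in endothelial cells, measured 23.99, 23.4 and 24.3 CPM in APP-TKI and 28.7, 29.3 and 29.97 CPM in DM libraries (0.30 ± 0.08). Myelin and oligodendrocyte precursor markers had medians of 0.05 and -0.01.

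Lists of hippocampal neuron types had medians from -0.14 to 0.05. Of 17 dentate granule markers, 3 had a positive fold change, and of 19 CA2 and CA3 markers 5 did, with medians of -0.05 and -0.14. The dentate median changed sign to 0.02 without APP-TKI replicate 2, and that of CA2 and CA3 was -0.06 without DM replicate 1. *Glp1r*, the GLP-1 receptor, measured 6.82, 5.63 and 4.12 CPM in APP-TKI and 2.68, 3.86 and 3.76 CPM in DM libraries (-0.69 ± 0.20). *Eomes*, a transcription factor of intermediate progenitors, measured 1.31, 0.991 and 0.525 CPM in APP-TKI and 0.413, 0.469 and 0.484 CPM in DM libraries (-1.04 ± 0.43). Its levels were low, and APP-TKI replicate 3 was close to DM. It belongs to a list of 15 neurogenesis and proliferation markers, of which 6 had a positive fold change, with a median of -0.03. Of 13 CA1 markers, 12 had a positive fold change with a median of 0.05, and *Ndst4*, a heparan sulfate sulfotransferase, measured 37.2, 36.0 and 42.6 CPM in APP-TKI and 47.6, 48.3 and 49.5 CPM in DM libraries (0.33 ± 0.08). Of 18 interneuron markers, 15 were positive, and neuropeptide Y, *Npy*, was at 0.26 ± 0.09. Of 24 immediate early genes, 8 were positive, and *Npas4*, induced by neuronal activity, measured 16.1, 7.81 and 7.74 CPM in APP-TKI and 8.38, 6.23 and 5.01 CPM in DM libraries (-0.69 ± 0.30), with APP-TKI replicate 1 far above the rest. Glutamate receptors (-0.03), GABA-A receptors (-0.01) and presynaptic genes (-0.01) had medians close to 0, and so did App processing and clearance genes (0.01), lipoprotein receptors (-0.04), cholesterol synthesis (-0.02) and lysosomal genes (0.04). The imprinted gene *Nnat*, neuronatin, of neurons and ependyma, measured 313.9, 265.4 and 303.3 CPM in APP-TKI and 447.3, 352.4 and 395.9 CPM in DM libraries (0.44 ± 0.09). The brain metallothionein *Mt3* was at 0.35 ± 0.11 and the ferroxidase *Cp*, ceruloplasmin, at 0.34 ± 0.10, both without overlap.

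Genes lower in DM were fewer. *Btg3* (chr16:78332637-78377192), an antiproliferative gene, measured 10.3, 10.6 and 11.3 CPM in APP-TKI and 8.64, 7.50 and 7.26 CPM in DM libraries (-0.46 ± 0.10, adjusted p = 0.637, edgeR). WT libraries, at 10.3, 10.9 and 10.9 CPM, were at the APP-TKI level. *Rec8*, a meiotic cohesin subunit, measured 3.73, 4.05 and 3.81 CPM in APP-TKI and 2.55, 2.40 and 2.88 CPM in DM libraries (-0.57 ± 0.15), and WT libraries, at 2.12, 2.15 and 1.87 CPM, were lower still. *Dynlt1b*, a dynein light chain with near-identical copies on chr17, was similar, with 3.35, 3.15 and 2.65 CPM in APP-TKI, 2.29, 1.27 and 1.45 CPM in DM and 1.04, 1.56 and 0.826 CPM in WT libraries (-0.86 ± 0.27 between DM and APP-TKI). In the cluster of 6 *Dynlt1* and *Tmem181* genes, 0 had a positive fold change, and counts there are uncertain because copies share reads. The calcium channel *Trpv6* (-0.62 ± 0.19), the formin *Daam2* (-0.22 ± 0.07), the replication factor *Wdhd1* (-0.40 ± 0.13) and *Cbs*, cystathionine β-synthase (-0.24 ± 0.08), completed the group with described functions.

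The 3 entries next to the pseudoautosomal boundary had fold changes of larger size. *Gm47283*, annotated at chrY:90784738-90816464, measured 32.2, 32.7 and 31.1 CPM in APP-TKI and 17.3, 7.14 and 9.12 CPM in DM libraries (-1.51 ± 0.35). *Gm21887*, at chrX:170009659-170019281, measured 17.3, 18.7 and 17.6 CPM in APP-TKI and 10.9, 4.49 and 4.24 CPM in DM libraries (-1.44 ± 0.38), and *Gm21860* was at -1.47 ± 0.36. The mice are female and these entries have near-identical copies on X and Y, so which copy the reads came from is uncertain. WT libraries varied widely, from 13.99 to 40.6 CPM for *Gm47283*. *Mid1*, an E3 ubiquitin ligase that spans the same boundary on X, measured 4.40, 5.22 and 5.11 CPM in APP-TKI and 3.94, 3.91 and 3.33 CPM in DM libraries (-0.40 ± 0.21), both far below the 11.5 to 21.8 CPM of WT libraries.

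**Figure D4:**
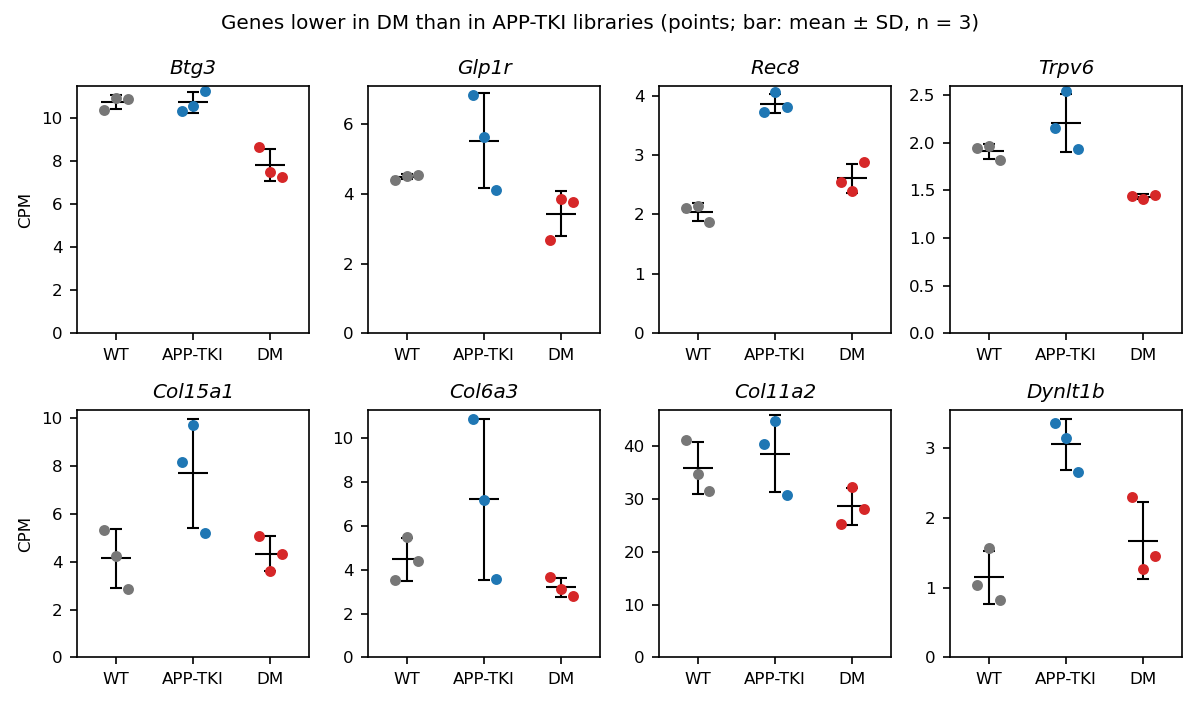
CPM of 8 genes with lower values in DM than in APP-TKI mice in each library of batch 1 (points), with the mean and SD of 3 libraries as black bars. *Btg3* in DM is below both other groups, whereas *Rec8*, *Col15a1* and *Dynlt1b* are highest in APP-TKI, and *Col6a3* and *Col11a2* overlap between the genotypes.

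Genes next to the altered loci were looked at because they can be inherited with a knocked-in allele. Of 96 genes within 5 Mb of *Apoe*, 45 had a positive fold change, against 50.4% of all genes, 6 were higher and 1 was lower without overlap, against 5.03% and 2.9% of all genes, and the median was -0.01. These shares are near the background, and the members named here were picked by position and p. *Bcam*, a laminin-binding adhesion molecule of vessels and epithelia next to *Apoe*, measured 4.52, 3.99 and 4.37 CPM in APP-TKI and 5.47, 5.54 and 6.55 CPM in DM libraries (0.45 ± 0.14). *Gpr4*, a proton-sensing receptor of endothelial cells, measured 0.933, 0.933 and 0.857 CPM in APP-TKI and 1.495, 1.05 and 1.595 CPM in DM libraries. Of 19 genes within 5 Mb of *App*, 14 had a positive fold change with a median of 0.07, and the ATP synthase subunit *Atp5j* was at 0.18 ± 0.07 with overlap. *Btg3*, described above as lower in DM, is on the chromosome of *App* but outside this window, so it is not in these counts.

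The comparison of ApoE4 with WT mice in batch 2 shares no library with that of DM with APP-TKI and gives the effect of *APOE4* without mutant *App*, with each effect taken within its batch. Levels cannot be set across batches: the 8 vascular genes summed to 41.4 to 47.0 CPM in APP-TKI and 63.5 to 82.1 CPM in DM libraries of batch 1, but to 123.0 to 126.4 CPM in WT libraries of batch 2. Their median fold change was 0.72 in DM minus APP-TKI and -0.07 in ApoE4 minus WT. Among lists with a positive median in DM minus APP-TKI, several had a negative one in ApoE4 minus WT, for example fibroblast markers (-0.35), smooth muscle markers (-0.30), interferon response genes (-0.24), MHC class I genes (-0.17) and pericyte markers (-0.14). Negative medians there were not limited to vessel, fibroblast and immune lists, with -0.82 for markers of the thalamus and habenula. Those markers summed to 1000 CPM in WT replicate 3 of batch 2, against 239.2 and 361.6 CPM in the other WT libraries of that batch. ApoE4 libraries were at 448.2, 316 and 397.2 CPM. Ependymal markers were positive in both, at 0.45 and 0.57. Over all tested genes, which are not independent, Spearman's rho between the fold changes of the 2 comparisons was -0.14. Of 57 genes at unadjusted p under 0.05 in both, 13 had the same direction.

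The test of the difference between these effects called no gene at an adjusted p under 0.1 (0.0% of tested genes, smallest adjusted p 0.262, edgeR). At an unadjusted p under 0.05, 656 genes (4.06%) had a more positive and 451 (2.79%) a more negative effect of *APOE4* with mutant *App*. All 8 vascular genes and the 4 named ribosomal genes were among the former. The study chose these 12 genes for being higher in DM than in APP-TKI mice in the same libraries, a contrast that enters the difference, so their count is a description and not independent evidence. Also among the former were 16 of 38 endothelial markers, 10 of 28 fibroblast markers, 10 of 18 interferon response genes and 43 of 74 respiratory chain subunits. The endothelial count includes *Ptprb*, *Pecam1*, *Cdh5*, *Flt1* and *Vwf*, which are among those 12 genes. *Myh11* had the smallest p. Its batch 2 values were 8.28, 8.84 and 12.04 CPM in WT and 5.93, 5.04 and 5.45 CPM in ApoE4 libraries, opposite to batch 1, and the difference of effects was 1.64 ± 0.26. *Pecam1* measured 13.9, 12.9 and 12.8 CPM in WT and 12.2, 13.1 and 10.8 CPM in ApoE4 libraries, with a difference of effects of 0.82 ± 0.17. *Ndst4* was lower in ApoE4 than in WT libraries, at 28.8, 33.0 and 29.4 against 39.1, 43.0 and 35.6 CPM, with a difference of 0.70 ± 0.12. Among genes with a more negative effect were 8 of 18 glucocorticoid response genes, whose median was -0.05 in DM minus APP-TKI and 0.38 in ApoE4 minus WT.

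These counts rested in part on single libraries of both batches. Striatal markers summed to 1736 CPM in ApoE4 replicate 3, against 341.3 to 421.2 CPM in the other 5 libraries of batch 2. Choroid plexus markers summed to 1761 CPM in WT replicate 3 and 2087 CPM in ApoE4 replicate 1, against 71.0 to 118.0 CPM in the rest. In batch 1, the same lists stayed within 335.9 to 356.6 and 31.6 to 85.2 CPM. The more positive genes ranged from 393 without ApoE4 replicate 3 to 990 without APP-TKI replicate 3, and the more negative from 245 without ApoE4 replicate 3 to 890 without DM replicate 1. More negative genes also numbered 802 without APP-TKI replicate 3 and 277 without APP-TKI replicate 2, and more positive genes 955 without DM replicate 1 and 432 without APP-TKI replicate 2.

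Among the lists, the respiratory chain count of 43 was 22 without ApoE4 replicate 3, 24 without DM replicate 3 or WT replicate 3 of batch 2, and 27 without APP-TKI replicate 2. The fibroblast count of 10 was 1 without WT replicate 3 of batch 2, 6 without APP-TKI replicate 1 or DM replicate 3, and 18 without WT replicate 1 of batch 2. With any 1 of the 12 libraries left out, 13 to 18 endothelial markers, 7 to 10 interferon response genes and 6 to 10 glucocorticoid response genes had an unadjusted p under 0.05 in the direction given. Of 15 striatal markers, 8 had a more negative effect. That count was between 1 and 15 with a library left out, while the median difference of -1.67 lay between -2.08 and -1.46 in all of these fits but the one without ApoE4 replicate 3, where it was -0.10.

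**Figure D5:**
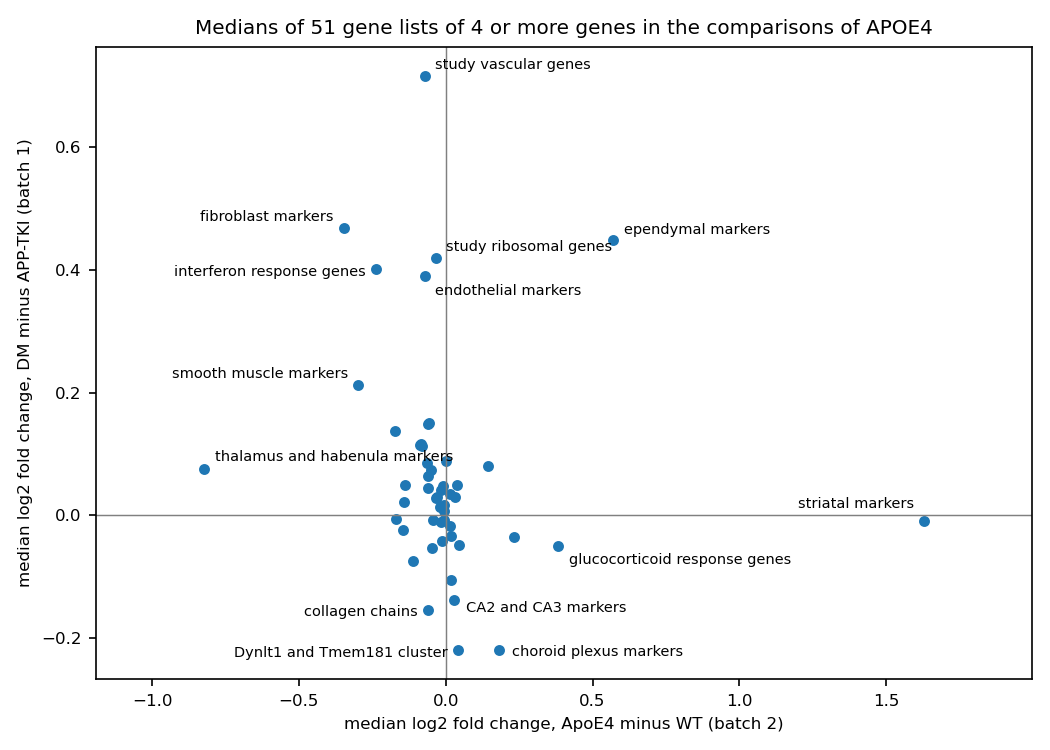
Median log2 fold change of each of 51 gene lists (points) in ApoE4 minus WT of batch 2 (horizontal axis) and in DM minus APP-TKI of batch 1 (vertical axis), with selected lists named. The study vascular, endothelial and fibroblast lists lie at 0.72, 0.39 and 0.47 on the vertical axis and below 0 on the horizontal axis, pericyte and basement membrane lists lie near 0 on the vertical axis, the striatal list lies at 1.63 on the horizontal axis only, and ependymal markers are positive on both.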

How the data were processed

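PolyA RNA of the hippocampus was sequenced as paired 150 bp reads with a directional kit. The deposited values are whole-number read counts per gene. The authors trimmed reads with Trimmomatic 0.39, aligned them with STAR 2.7.1a to the GENCODE mouse genome with human *APOE* added, counted with HTSeq 0.11.2 and combined both *APOE* counts. The sources used here do not state whether HTSeq used strand, and values of overlapping and antisense genes are therefore uncertain.

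Genes with over 1 CPM in at least 3 libraries were scaled by the upper quartile and tested with the quasi-likelihood test of edgeR 4.0.16 (R 4.3.3), fitted on the 9 batch 1 libraries, or on all 15 for the difference of effects. P-values were adjusted by Benjamini-Hochberg over all 16171 genes and called under 0.1. CPM values use the same scaling. Of 55471 gene IDs, 55230 matched a GRCm38 annotation. The labels do not say whether libraries come from separate litters, so p-values measure the spread between these libraries. Fits were tested on simulated data.

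Members and 54 gene lists were chosen with earlier results of these data known. Of their 1138 symbols, 11 had no match. Named genes are those the study names, the 12 higher and 12 lower protein-coding genes with the smallest p, averaging 1 CPM or more and without overlap, up to 4 members of each list by p, neighbours within 5 Mb of *Apoe* or *App*, and the 5 smallest p of the difference of effects. Not every gene that these rules name is reported here. Alternatives were other tests (DESeq2 1.42.0 among them), scalings, filters, library sets, a replicate block, a nuclear RNA covariate and each library left out. Figures used Python 3.11.15 and matplotlib 3.10.9.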

Additional observations from a re-analysis of the deposited data

How the results depend on the processing

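The count of protein-coding genes called between DM and APP-TKI mice was 0 in the main test of edgeR and stayed 0 with TMM or median-of-ratios scaling, robust quasi-likelihood dispersions, filterByExpr, a threshold of 0.05, the 6 libraries alone, all 15 libraries and each of the 9 libraries left out in turn (0 to 0). It was 46 with the robust likelihood ratio test, 26 with robust tagwise dispersions, 16 with DESeq2, 93 with no filter and 1 with the nuclear RNA covariate. The number of genes at unadjusted p under 0.05 was 611, and 1483 with no filter, 993 with the replicate block, 1043 with the nuclear covariate and 344 to 1343 with a library left out. The difference of *APOE4* effects called 0 genes, 13 with the likelihood ratio test, 24 with DESeq2 and 0 to 0 with a library left out. The labels do not say whether replicate numbers pair libraries. Deviations from the group mean correlated at 0.23, -0.12 and 0.22 for same-numbered APP-TKI and DM libraries, and at -0.356 to 0.235 for differently numbered ones. For WT and DM libraries of batch 1, the values were 0.447, 0.195 and 0.301 against -0.333 to 0.115. With so few libraries these correlations do not settle whether the numbers pair them. The replicate block called 0 genes in either test. In 1536 refits of single named genes, *Hbb-bs* changed direction once, ranging from -0.44 to 0.075 with a library left out, and 48 refits passed the threshold. The cause of these differences between tests was not tested. Of 540 list medians refitted, 23 moved by more than the spread between libraries. Genes near 1 CPM carry the largest errors, and their fold changes are the least certain.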
